A study of Mus musculus with 15 samples.

Results

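The elastic fibre genes described here are 10 genes for the elastin core, the microfibrils that carry it and the enzymes that cross-link it: Eln, Mfap2, Mfap4, Mfap5, Fbln2, Fbln5, Lox, Loxl1, Emilin1 and Ltbp4. They were taken by name from 22180 genes, each read from the brightest probe set that names that gene alone, and all 10 were measured, each by a single such probe set. The study compared aortas of DBA/2NCrl mice, an inbred strain aged 8 weeks when feeding began, after 5 days on a high-phosphate diet (HPD, 20.2 g of phosphorus per kg) or on standard chow (SCD, 7.0 g per kg). Total RNA was hybridised to 15 arrays, 3 of thoracic aorta on HPD, 4 of thoracic aorta on SCD, 4 of abdominal aorta on HPD and 4 of abdominal aorta on SCD. The labels call the arrays of a group biological replicates, name no sex, and do not say whether pieces were pooled or whether a mouse gave tissue to both segments. The study asks how dietary phosphate alters gene expression in each segment. Values are log2 intensities as deposited, given as mean ± SD, changes are log2 differences ± SE from limma, and a gene is called where its Benjamini-Hochberg adjusted p over all genes is under 0.05.

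Elastic fibres give large arteries their recoil. Smooth muscle cells and fibroblasts secrete tropoelastin, the product of Eln, onto a scaffold of fibrillin microfibrils, where fibulins and latent TGF-beta binding proteins place it and lysyl oxidases join its chains into an insoluble polymer. In the aorta the fibres form concentric lamellae between layers of smooth muscle, most of them laid down before adult life, and they are a known site of calcium phosphate deposition when the vessel wall calcifies. The fibrillin gene Fbn1 and the fibulin-4 gene Efemp2 were not analysed here.

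All 10 elastic fibre genes had higher means in both thoracic groups than in both abdominal groups, and in all 10 the abdominal HPD group had the lowest mean. For Mfap2 the abdominal means were almost level, at 6.39 on HPD and 6.4 on SCD. The share of all genes with this order was not counted. Between segments, thoracic aorta was called higher for 8 of the 10 on HPD and for 4 of the 10 on SCD. Between diets, Mfap4 and Loxl1 fell on HPD in abdominal aorta, by 0.85 ± 0.176 and 0.70 ± 0.126, and none of the 10 was called in thoracic aorta. Mfap2, a small microfibril glycoprotein gene, stayed between 6.16 and 6.61 in all 15 arrays.

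Smooth muscle markers were read in all 15 arrays, with Myh11, the smooth muscle myosin heavy chain, between 10.35 and 11.49, Acta2, smooth muscle actin, between 10.87 and 12.08 and Mylk, myosin light chain kinase, between 6.09 and 7.3. Other tissue differed between arrays. The mean of 8 T and NK cell markers was 8.66, 8.59, 6.39 and 8.23 in abdominal HPD arrays 1 to 4 and 5.78, 7.7, 6.27 and 8.24 in abdominal SCD arrays 1 to 4, against at most 6.05 in thoracic arrays. The mean of 9 hepatocyte markers was 8.62 and 10.53 in abdominal HPD arrays 3 and 4 and 7.31 in thoracic SCD array 4, and 6.17 to 6.83 in the other arrays. Means of 8 cardiac muscle markers were 8.37 to 9.34 in thoracic and 6.13 to 6.36 in abdominal arrays, and means of 7 sympathetic and chromaffin markers were 5.37 to 6.18 in thoracic and 6.98 to 8.12 in abdominal arrays. The mean of 8 brown adipocyte markers was 8.15 to 8.84 in thoracic HPD and 9.46 to 9.77 in thoracic SCD arrays, and 7.27 to 7.9 in abdominal HPD and 9.07 to 9.53 in abdominal SCD arrays. These are bulk samples, in which fewer cells of a type and less RNA per cell cannot be told apart.

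Promoters were at hand for 5 of the 10 genes, in RefSeq's GRCm38.p6 annotation, as the 250 bases before the annotated start of transcription. Of these, 3 are shown because the genes differ in how they behaved: Fbln5 and Ltbp4 were among the genes called higher in thoracic aorta on HPD, and Mfap2 was called in no comparison. Capitals mark each GC box, the letters GGGCGG on either strand (CCGCCC when read on the other), which is the core of the site of SP1, a zinc finger factor used by many promoters. Each is written 5′ to 3′ on the strand of its gene.
Fbln5, chr12:101819120-101819369, minus strand: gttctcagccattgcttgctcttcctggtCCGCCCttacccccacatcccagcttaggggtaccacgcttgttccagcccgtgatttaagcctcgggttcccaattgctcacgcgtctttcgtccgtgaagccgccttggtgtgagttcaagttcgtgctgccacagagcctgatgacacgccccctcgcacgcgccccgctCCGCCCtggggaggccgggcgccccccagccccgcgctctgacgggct
Ltbp4, chr7:27337613-27337862, minus strand: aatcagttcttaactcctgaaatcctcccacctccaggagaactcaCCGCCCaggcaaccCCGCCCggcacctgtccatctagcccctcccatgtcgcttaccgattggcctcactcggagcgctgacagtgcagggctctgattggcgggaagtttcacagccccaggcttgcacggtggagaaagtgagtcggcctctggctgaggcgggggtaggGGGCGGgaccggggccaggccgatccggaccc
Mfap2, chr4:141010431-141010680, plus strand: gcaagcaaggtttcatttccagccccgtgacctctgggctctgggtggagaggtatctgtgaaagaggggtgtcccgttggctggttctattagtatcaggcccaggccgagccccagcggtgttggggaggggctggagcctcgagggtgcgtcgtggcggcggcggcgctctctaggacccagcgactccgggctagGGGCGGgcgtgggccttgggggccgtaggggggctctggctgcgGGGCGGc
GC boxes stood 2 times in the window of Fbln5, 3 times in that of Ltbp4, 2 times in that of Mfap2 and once in that of Fbln2, while the window of Emilin1 held none. The box was thus in 4 of the 5 windows, against 32.9% of the 27025 promoters of the table, and it was present both in genes that differed between segments and in Mfap2, which did not pass. The CArG box, the site of serum response factor at many smooth muscle genes, was in 0 of the 5 windows and in 1.4% of all promoters. These matches describe the letters of the windows only.

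On HPD, 8 of the 10 elastic fibre genes were called higher in thoracic aorta, against 7.57% of all genes called higher and 6.25% lower. On SCD 4 of the 10 were called higher, against 1.76% of all genes called higher and 3.02% lower, and none of the 10 was called lower on either diet. The median difference of the 10 genes was 0.98 on HPD and 0.64 on SCD, beside 0.038 and 0.031 for all genes. Every thoracic array lay above every abdominal array for 9 of the 10 genes on HPD, where 13.7% of all genes showed this, and for 6 of the 10 on SCD, where 6.01% did.

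Eln, the gene of tropoelastin (probe set 17453454), read 9.18, 8.91 and 9.77 in thoracic HPD arrays and 9.25, 9.79, 9.7 and 9.18 in thoracic SCD arrays, against 7.71, 7.44, 8.79 and 8.15 in abdominal HPD arrays and 8.94, 8.75, 8.77 and 8.24 in abdominal SCD arrays. On each diet every abdominal array lay below every thoracic one, and on HPD the nearest was abdominal array 3. On HPD the segments differed by 1.27 ± 0.282, 2.41-fold higher in thoracic aorta (adjusted p = 0.00885). On SCD they differed by 0.81 ± 0.261 (adjusted p = 0.0957), which did not pass although the groups did not overlap.

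The microfibril-associated genes differed in their calls between segments. Mfap4, whose product binds both elastin and fibrillin (probe set 17250585), had the largest difference of the 10 on either diet. It read 8.49, 8.55 and 8.54 in thoracic HPD arrays and 8.57, 8.6, 8.62 and 8.85 in thoracic SCD arrays, against 6.47, 6.96, 7.48 and 6.79 in abdominal HPD arrays and 8.21, 7.68, 7.69 and 7.52 in abdominal SCD arrays. The 4 groups stood in order from abdominal HPD, through abdominal SCD and thoracic HPD, up to thoracic SCD, with no overlap at any step. The steps between diets were narrow, 7.48 against 7.52 in abdominal and 8.55 against 8.57 in thoracic arrays. The thoracic diet change of Mfap4 was not called. Thoracic aorta was higher by 1.6 ± 0.19 on HPD (3.03-fold, adjusted p = 0.000194) and by 0.88 ± 0.176 on SCD (1.85-fold, adjusted p = 0.00885).

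Mfap5, the gene of microfibril-associated glycoprotein 2 (probe set 17462663), read 10.95, 10.75 and 11.34 in thoracic HPD arrays and 10.52, 10.39, 10.82 and 10.75 in thoracic SCD arrays, against 9.35, 9.2, 10.21 and 9.47 in abdominal HPD arrays and 10.06, 9.77, 9.91 and 9.53 in abdominal SCD arrays. All 7 thoracic arrays lay above all 8 abdominal ones. The difference was 1.46 ± 0.208 on HPD (2.74-fold, adjusted p = 0.000562) and 0.80 ± 0.193 on SCD (1.74-fold, adjusted p = 0.0263). The SCD call of Mfap5 was lost without any 1 of abdominal SCD arrays 2, 3 and 4 and thoracic SCD arrays 1, 3 and 4, with adjusted p between 0.0513 and 0.1. Mfap2, which encodes the related glycoprotein 1, gave 0.11 ± 0.1 on HPD (95% interval -0.10 to 0.32) and 0.08 ± 0.0929 on SCD (-0.12 to 0.28). Its values, 6.16 to 6.61, lay near the array medians of 5.78 to 5.84. Detection calls were not used, so whether its probe set read above background is unknown.

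Among the fibulins, Fbln5, which tethers tropoelastin to microfibrils and to cells (probe set 17283380), read 9.24, 9.26 and 9.36 in thoracic HPD arrays and 9.39, 9.28, 9.53 and 9.48 in thoracic SCD arrays, against 8.1, 8.3, 8.75 and 8.0 in abdominal HPD arrays and 9.09, 8.78, 8.84 and 8.26 in abdominal SCD arrays. The segments did not overlap. Thoracic aorta was higher by 1.00 ± 0.176 on HPD (adjusted p = 0.0021) and by 0.68 ± 0.163 on SCD (1.6-fold, adjusted p = 0.0263). The SCD call of Fbln5 was lost without abdominal SCD array 4 (adjusted p = 0.0816) and without thoracic SCD array 1, 3 or 4. Fbln2, a fibulin of the inner elastic lamina (probe set 17460891), averaged 7.9 ± 0.04 in thoracic HPD (n = 3) and 7.79 ± 0.08 in thoracic SCD arrays (n = 4), against 7.25 ± 0.25 in abdominal HPD and 7.54 ± 0.17 in abdominal SCD arrays (n = 4 each). It was called higher in thoracic aorta on HPD (0.65 ± 0.119, adjusted p = 0.00272), and on SCD the groups overlapped (0.25 ± 0.111, adjusted p = 0.237).

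Both cross-linking enzymes among the 10 had higher means in thoracic aorta. Lox, lysyl oxidase (probe set 17354367), read 8.97, 9.3 and 9.37 in thoracic HPD arrays and 9.1, 8.93, 9.26 and 9.16 in thoracic SCD arrays, against 7.72, 7.76, 8.75 and 7.98 in abdominal HPD arrays and 8.63, 8.41, 8.55 and 7.94 in abdominal SCD arrays. Neither diet brought an abdominal array up to the thoracic ones. The difference was 1.16 ± 0.216 on HPD (2.24-fold, adjusted p = 0.00295) and 0.73 ± 0.2 on SCD, where its adjusted p of 0.05004 lay just above the threshold. Loxl1, the lysyl oxidase that fibulin-5 guides to elastin (probe set 17527694), was higher in thoracic aorta by 0.96 ± 0.136 on HPD (1.95-fold, adjusted p = 0.000527) and by 0.60 ± 0.126 on SCD (1.51-fold, adjusted p = 0.0125), a call that was lost without abdominal SCD array 4 (adjusted p = 0.053).

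Ltbp4, which helps fibulin-5 onto microfibrils (probe set 17488179), averaged 7.76 ± 0.04 in thoracic HPD (n = 3) and 7.92 ± 0.16 in thoracic SCD arrays (n = 4), against 7.33 ± 0.18 in abdominal HPD and 7.71 ± 0.19 in abdominal SCD arrays (n = 4 each). Its difference was 0.43 ± 0.119 on HPD (adjusted p = 0.0266) and 0.21 ± 0.11 on SCD (adjusted p = 0.309). The call on HPD was lost without any 1 of 6 of the 7 HPD arrays, with adjusted p between 0.0513 without abdominal array 1 and 0.0823 without abdominal array 2 for Ltbp4. Emilin1, an elastic fibre glycoprotein found between the elastin core and the microfibrils (probe set 17435920), gave 0.26 ± 0.0932 on HPD (adjusted p = 0.0791), where its groups did not overlap, and 0.15 ± 0.0863 on SCD (adjusted p = 0.349).

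**Figure D1:**
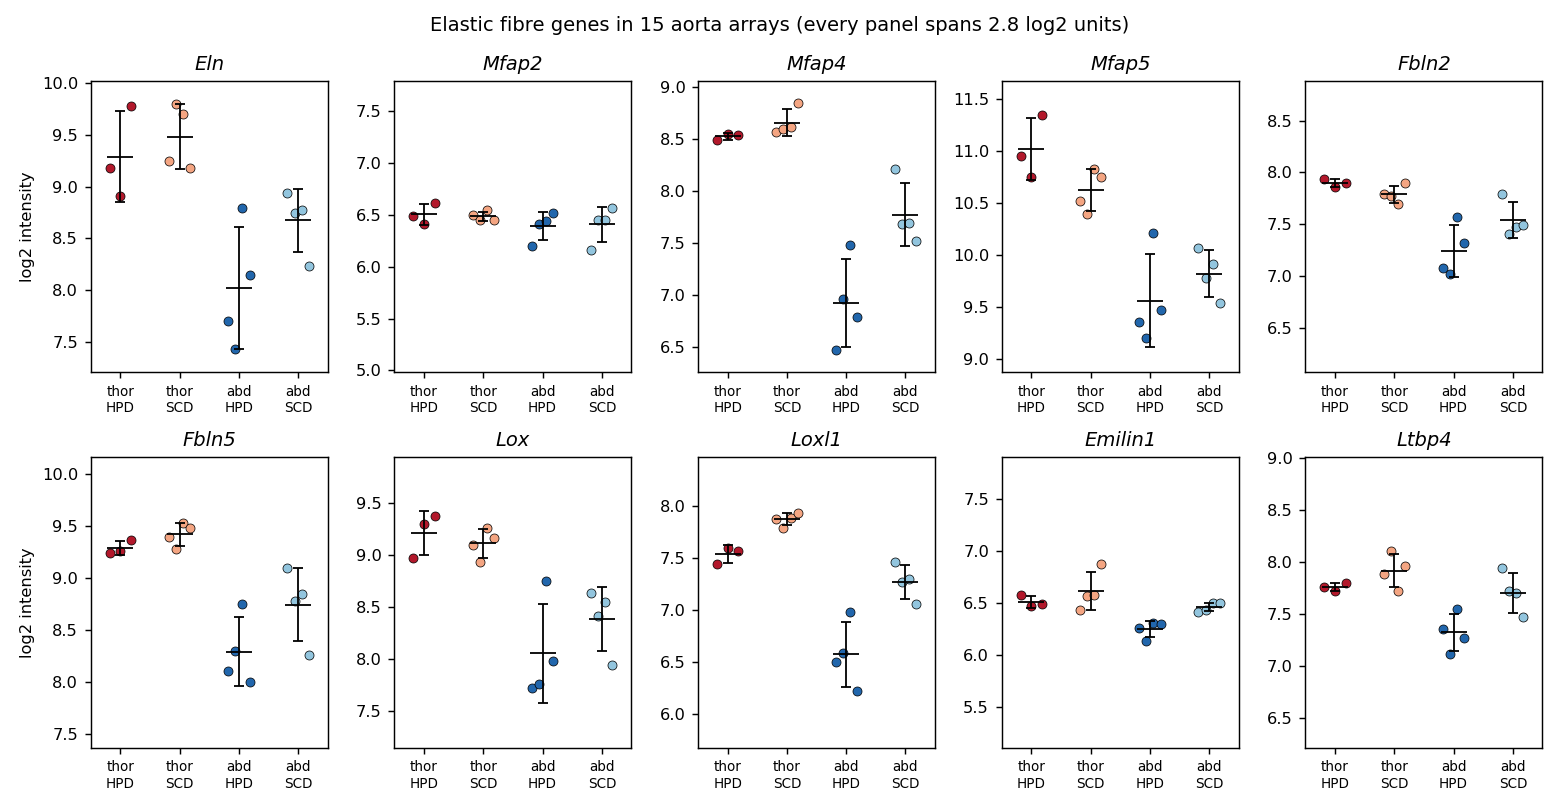
Log2 intensity of each of the 10 elastic fibre genes, 1 panel per gene and 1 point per array, with thoracic HPD, thoracic SCD, abdominal HPD and abdominal SCD from left to right, a long bar for the group mean and whiskers for 1 SD (n = 3 in thoracic HPD and n = 4 in the other groups). All panels span the same number of log2 units; the abdominal HPD mean is the lowest in all 10 panels and Mfap2 lies almost level.

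**Figure D2:**
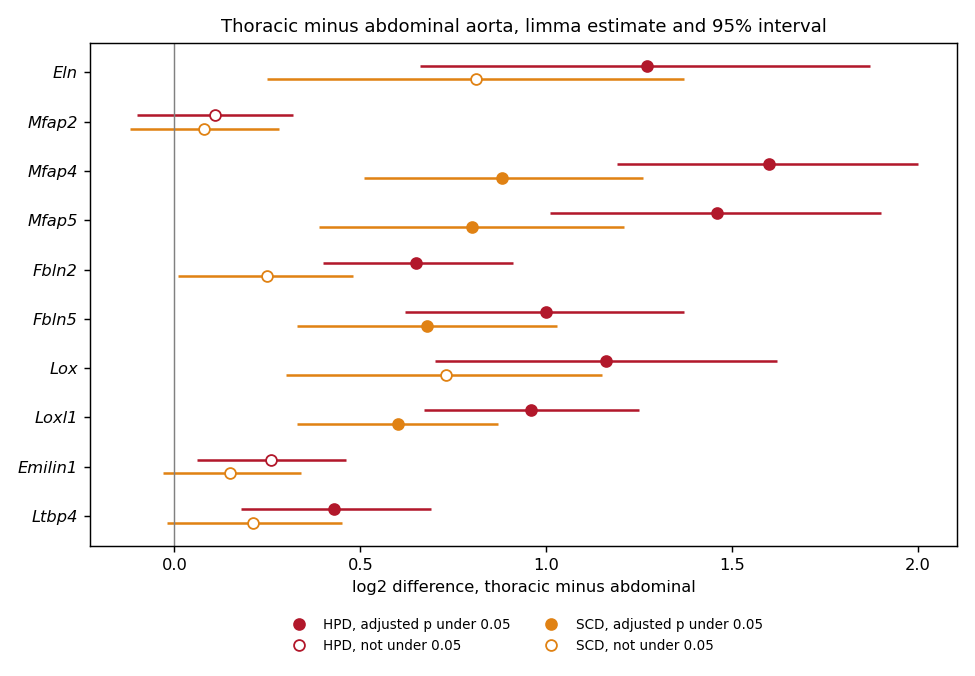
Difference between segments, thoracic minus abdominal, in log2 units for each elastic fibre gene, with the limma estimate as a point and its 95% interval as a line, on HPD above and on SCD below. Filled points have an adjusted p under 0.05, 8 of the 10 genes on HPD and 4 of the 10 on SCD.

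Smooth muscle markers differed between segments in the same direction. The mean of 10 of them was 9.16 to 9.36 in thoracic HPD and 9.0 to 9.22 in thoracic SCD arrays, against 8.12 to 8.76 in abdominal HPD and 8.2 to 8.79 in abdominal SCD arrays. With that mean as a covariate, 0 of the 10 elastic fibre genes were called between segments on either diet, and 9 genes of all 22180 were on HPD and 68 on SCD. In that fit the difference on HPD was -0.195 for Eln, -0.018 for Fbln5, -0.128 for Lox, -0.023 for Ltbp4, 0.653 for Mfap4 and 0.315 for Loxl1. The covariate itself separates the segments completely, so the covariate and the segment cannot be told apart in these arrays. Leaving out the 5 abdominal arrays with high T and NK cell markers left abdominal HPD array 3 as the single array of its group, which is then assumed to vary like the other groups, so its values are given without a reading of the calls. The difference on HPD was then 1.041 for Mfap4, 0.556 for Loxl1, 0.502 for Eln, 0.801 for Mfap5, 0.332 for Fbln2, 0.535 for Fbln5, 0.464 for Lox and 0.204 for Ltbp4. On SCD, where abdominal arrays 1 and 3 were left, it was 0.71 for Mfap4, 0.457 for Fbln5, 0.492 for Loxl1 and 0.634 for Mfap5 (adjusted p = 0.0772, the call of Mfap5 being lost).

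The diet comparison in abdominal aorta asks what 5 days of high phosphate did there. All 10 estimates were below 0, with a median of -0.35 beside -0.008 for all genes, but 2 of the 10 passed, both lower, against 5.06% of all genes called lower and 1.95% called higher. In 3 of the 10, Mfap4, Loxl1 and Emilin1, every HPD array lay below every SCD array, which 7.75% of all genes showed.

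Mfap4 averaged 6.93 ± 0.42 in abdominal HPD and 7.78 ± 0.3 in abdominal SCD arrays (n = 4 each), and the highest HPD array, at 7.48, lay just under the lowest SCD array, at 7.52. It fell by 0.85 ± 0.176, 1.8-fold lower on HPD (adjusted p = 0.00771). With only the abdominal arrays in the fit the estimate for Mfap4 was the same and its adjusted p was 0.062. Loxl1 read 6.5, 6.59, 6.98 and 6.22 in abdominal HPD arrays against 7.46, 7.27, 7.3 and 7.06 in abdominal SCD arrays. It fell by 0.70 ± 0.126, 1.63-fold lower on HPD (adjusted p = 0.00285), and the adjusted p of Loxl1 was 0.0347 with only the abdominal arrays in the fit. With the brown adipocyte mean as a covariate, which was 7.54 ± 0.26 in abdominal HPD and 9.3 ± 0.19 in abdominal SCD arrays (n = 4 each), Mfap4 turned to 0.443 ± 0.485 (adjusted p = 0.864) and Loxl1 gave -0.082 ± 0.397 (adjusted p = 0.981), in a fit that called 0 of all 22180 genes in this comparison. That mean does not overlap between the diets, so the covariate and the diet cannot be told apart.

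The other 8 genes did not pass. Eln gave -0.65 ± 0.261 (95% interval -1.21 to -0.10, adjusted p = 0.17), with HPD array 3 at 8.79 inside the SCD range of 8.24 to 8.94 and the other 3 HPD arrays below it. Fbln5 gave -0.46 ± 0.163 (adjusted p = 0.119), Ltbp4 -0.38 ± 0.11 (adjusted p = 0.0521), Lox -0.33 ± 0.2 (adjusted p = 0.395) and Fbln2 -0.30 ± 0.111 (adjusted p = 0.136). Mfap5 gave -0.26 ± 0.193, Emilin1 -0.21 ± 0.0863 and Mfap2 -0.01 ± 0.0929. At an unadjusted p under 0.05, 7 of the 10 were lower, against 20% of all genes in either direction.

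Abdominal HPD array 3 differed from the other 3 arrays of its group. It was the highest of the 4 for 9 of the 10 genes, all but Mfap2, and it lay below the SCD range for 3 of the 10, where arrays 1, 2 and 4 did so for 9, 8 and 8. Its T and NK cell mean was 6.39 against 8.23 to 8.66 in the other 3, its smooth muscle mean 8.76 against 8.12 to 8.23, and its hepatocyte mean 8.62. Without it 7 of the 10 genes were called lower on HPD, Eln (-0.908, adjusted p = 0.0217), Fbln2 (-0.403), Fbln5 (-0.61), Lox (-0.564) and Ltbp4 (-0.454) joining Mfap4 (-1.036) and Loxl1 (-0.837), in a fit that called 2249 of all 22180 genes in either direction, against 432 higher and 1122 lower with all 15 arrays. Abdominal SCD array 4 was the lowest of its group for 7 of the 10 genes and had a T and NK cell mean of 8.24. Without it 4 of the 10 were called, Fbln5 (-0.615, adjusted p = 0.0159) and Ltbp4 (-0.458, adjusted p = 0.0188) joining Mfap4 and Loxl1, and 1751 of all genes were. Both arrays are described for their place in their group. Leaving out the highest HPD or the lowest SCD array of a gene lowers its estimate by construction, so the added calls are not separate evidence of a fall.

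T and NK cell markers were high in abdominal HPD arrays 1, 2 and 4 and SCD arrays 2 and 4. The mean of the 10 elastic fibre genes was 7.28, 7.3, 7.4, 7.87 and 7.66 in these arrays. In HPD array 3 and SCD arrays 1 and 3 it was 7.88, 8.07 and 7.92. Without the 5 abdominal arrays with high markers, HPD array 3 alone was set against SCD arrays 1 and 3 and was assumed to vary like the other groups. The change was then -0.466 for Mfap4 (adjusted p = 0.386), -0.401 for Loxl1 (adjusted p = 0.24) and -0.065 for Eln (adjusted p = 0.985), values that rest on 1 HPD array. Without the 3 arrays with hepatocyte markers 5 of the 10 were called lower, Mfap4 (-1.059), Loxl1 (-0.73), Eln (-1.098, adjusted p = 0.0186), Fbln2 (-0.493) and Lox (-0.644), and 1457 of all genes were called in either direction. The lymph node vessel gene Glycam1 read 12.2 in HPD array 3, 12.17 in SCD array 3 and 8.95 in SCD array 1, against at most 6.76 in thoracic arrays. Madcam1, the other gene of that list, read 5.87, 6.09 and 5.96 in these arrays and 5.82 to 6.15 in thoracic arrays. The fit without the 5 arrays was thus set by T and NK cell markers and kept arrays with high Glycam1. The part of lymphoid tissue in the falls was not tested beyond these fits.

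The 10 genes were also set against smooth muscle. Their mean minus that of the 10 smooth muscle markers was -0.89 to -0.88 in thoracic HPD and -0.79 to -0.63 in thoracic SCD arrays, and -0.90 to -0.82 in abdominal HPD and -0.73 to -0.54 in abdominal SCD arrays. On this measure the diets did not overlap in either segment and the segments overlapped on each diet. It is given as a description of means over chosen genes, with no test. With the smooth muscle mean as a covariate, Mfap4 (-0.617, adjusted p = 0.0108) and Loxl1 (-0.542, adjusted p = 0.00384) kept their calls in abdominal aorta, while Eln gave -0.294 (adjusted p = 0.461) and Lox -0.014. That fit called 1132 of all 22180 genes in either direction there, against 432 higher and 1122 lower in the main fit. The part of smooth muscle in the falls was not tested beyond this fit. The adventitial fibroblast mean was 8.24 to 8.61 in thoracic HPD and 8.55 to 8.66 in thoracic SCD arrays, and 7.93 to 8.06 in abdominal HPD and 8.5 to 8.77 in abdominal SCD arrays. Its genes did not all move alike. In abdominal aorta Dpt, Lum, Pi16, Cd34, Col1a1 and Col3a1 lay lower in every HPD array than in every SCD array. Dcn lay higher (11.96 to 12.09 against 11.84 to 11.92), and Pdgfra, Clec3b and Scara5 overlapped. The part of fibroblasts in the falls was not tested.

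**Figure D3:**
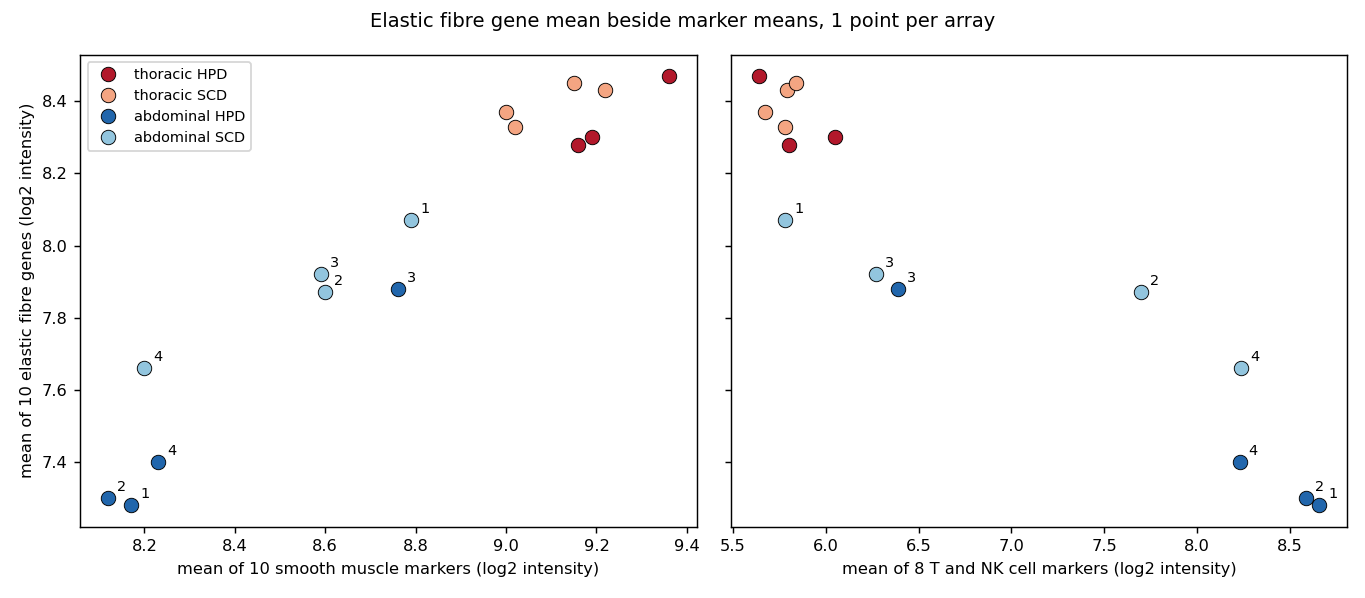
Mean log2 intensity of the 10 elastic fibre genes on the vertical axis against the mean of 10 smooth muscle markers (left) and of 8 T and NK cell markers (right), 1 point per array, coloured by group, with abdominal arrays numbered. Abdominal HPD array 3 sits among the abdominal SCD arrays in both panels. Abdominal HPD arrays 1, 2 and 4 and SCD array 4, with high T and NK cell means, have elastic fibre means of 7.28 to 7.66. SCD array 2, whose T and NK cell mean is 7.7, has 7.87, beside 7.88 in HPD array 3.

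In thoracic aorta none of the 10 genes was called, by limma, against 1.39% of all genes called higher and 1.08% lower, and 1 of the 10 was lower at an unadjusted p under 0.05, against 13.8% of all genes in either direction. The median change was -0.12 beside -0.011 for all genes, with 6 estimates below 0 and 4 above. That 1 gene was Loxl1, which read 7.44, 7.6 and 7.57 in thoracic HPD arrays against 7.88, 7.79, 7.89 and 7.93 in thoracic SCD arrays. The arrays of the diets did not overlap, and Loxl1 gave -0.34 ± 0.136 (adjusted p = 0.267), or -0.436 with the smooth muscle mean as a covariate, which passed (adjusted p = 0.0244). Mfap4 also had no overlap, by a narrow margin (8.49 to 8.55 on HPD and 8.57 to 8.85 on SCD), with a change of -0.14 ± 0.19 (adjusted p = 0.852). These were 2 of the 10, where 6.67% of all genes had every HPD array below every SCD array.

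For the other genes the thoracic intervals spanned 0. Eln gave -0.19 ± 0.282 (95% interval -0.80 to 0.41), an interval that includes the abdominal estimate of -0.65. Mfap5 gave 0.40 ± 0.208 (-0.05 to 0.84), with HPD arrays between 10.75 and 11.34 and SCD arrays between 10.39 and 10.82. Fbln2 gave 0.11 ± 0.119, Lox 0.10 ± 0.216, Fbln5 -0.13 ± 0.176, Emilin1 -0.10 ± 0.0932, Ltbp4 -0.16 ± 0.119 and Mfap2 0.02 ± 0.1.

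**Figure D4:**
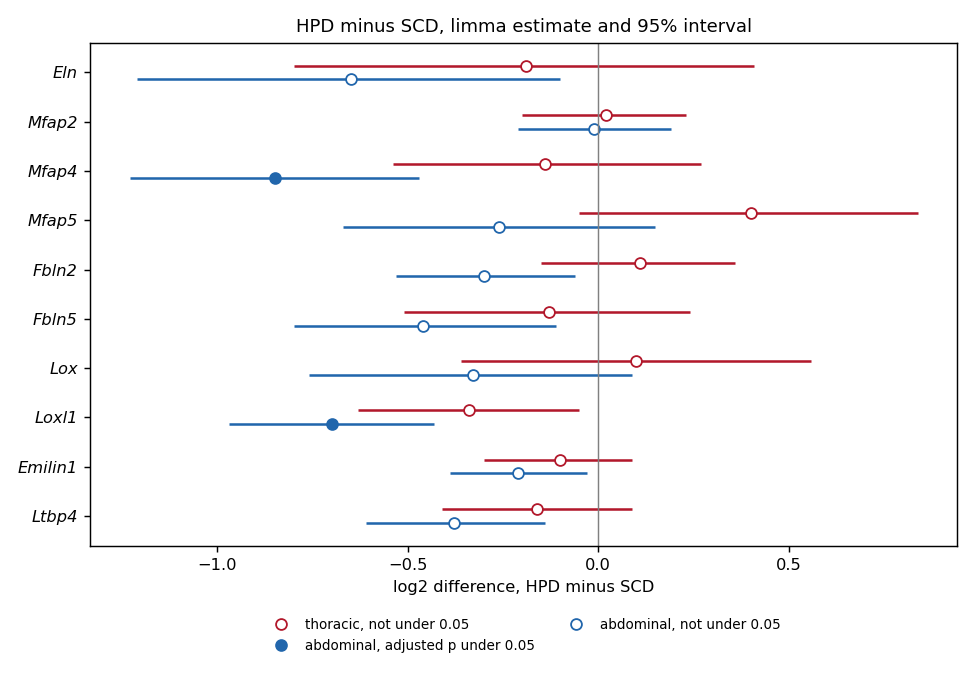
Diet change, HPD minus SCD, in log2 units for each elastic fibre gene, with the limma estimate as a point and its 95% interval as a line, thoracic aorta above and abdominal aorta below. The filled points, Mfap4 and Loxl1 in abdominal aorta, are those with an adjusted p under 0.05.

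Averaged over both segments, 3 of the 10 genes were called lower on HPD, beside 6.18% of all genes called lower and 4.53% called higher. Loxl1 fell by 0.52 ± 0.0929 (adjusted p = 0.00166) and Mfap4 by 0.49 ± 0.13 (adjusted p = 0.0222). Ltbp4 fell by 0.27 ± 0.0813 (adjusted p = 0.0463), a call that was lost in 18 of 27 alternative fits and turned to 0.276 in 1. The call of Mfap4 was lost without thoracic HPD array 1 (adjusted p = 0.0511). Eln gave -0.42 ± 0.192 (adjusted p = 0.202).

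Whether the diet change differed between segments was tested directly. The difference, abdominal minus thoracic, was below 0 for all 10 genes, with a median of -0.39 beside -0.011 for all genes. In limma 0 of the 10 passed, as 0% of all genes did. At an unadjusted p under 0.05, 3 of the 10 were lower, against 5.49% of all genes in either direction: Mfap4 (-0.71 ± 0.259, adjusted p = 0.879), Mfap5 (-0.66 ± 0.284, adjusted p = 0.879) and Fbln2 (-0.41 ± 0.163, adjusted p = 0.879). The interval for Mfap4 ran from -1.27 to -0.16 and that for Eln from -1.28 to 0.36. The falls of Mfap4 and Loxl1 were therefore not shown to be particular to abdominal aorta.

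The spread among replicates was uneven. The median SD of the 10 genes was 0.07 in thoracic HPD and 0.13 in thoracic SCD arrays, and 0.32 in abdominal HPD and 0.21 in abdominal SCD arrays, while the median SD over all genes lay between 0.13 and 0.15 in each group. Within groups, Eln varied most closely with Mfap5 and Lox among the 10, with Pearson's r of 0.81 and 0.74 between deviations from the group means over the 15 arrays. It varied less closely with Ltbp4 (0.64), Fbln2 (0.6), Fbln5 (0.58), Mfap4 (0.51) and Loxl1 (0.44), and hardly with Mfap2 (0.12) or Emilin1 (0.03). Over all genes the 5 with the highest r to Eln were Pcsk5, a proprotein convertase gene (0.928), Gm6642 (0.917), Gm10277 (0.91), Hoxb6, a homeobox gene (0.905), and Tmem45a (0.903). These values describe arrays that also share the differences in tissue given above.

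Of 14 other microfibril and elastic fibre genes, 3 were called lower on HPD in abdominal aorta, beside 5.06% of all genes, and none was called in thoracic aorta. Efemp1, the gene of fibulin-3, read 9.33, 9.26, 9.95 and 9.61 in abdominal HPD arrays against 10.35, 10.16, 10.23 and 9.98 in abdominal SCD arrays, and fell by 0.65 ± 0.149 (adjusted p = 0.0153). Ltbp1, a latent TGF-beta binding protein gene, fell by 0.55 ± 0.141 (adjusted p = 0.026), though its array 3 on HPD (8.1) lay above the lowest SCD array (7.98), and Adamtsl5, a microfibril-binding protein gene, fell by 0.32 ± 0.085 (adjusted p = 0.0355). The calls of Efemp1 and Ltbp1 were each lost without 1 of several abdominal arrays (for Efemp1 HPD array 1 or 2 or SCD array 1, with adjusted p = 0.0544, 0.0577 and 0.0613). The call of Adamtsl5 was lost without abdominal HPD array 1 or 4 or SCD array 1, 2 or 3 (adjusted p from 0.0731 to 0.114), with only the abdominal arrays in the fit (adjusted p = 0.116), with the smooth muscle covariate (adjusted p = 0.128) and without the arrays with hepatocyte markers (adjusted p = 0.107). With the brown adipocyte covariate the change was 0.053 for Efemp1, -0.233 for Ltbp1 and 0.009 for Adamtsl5, and with HPD array 3 alone against SCD arrays 1 and 3 it was -0.344, -0.191 and -0.283 for these genes. In thoracic against abdominal aorta, 5 of the 14 were called higher on HPD and 2 on SCD, beside 7.57% and 1.76% of all genes. On HPD they were led by Vcan, the proteoglycan versican (1.59 ± 0.174, 3.02-fold), and Efemp1 (1.38 ± 0.161, 2.6-fold).

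Vcan read 8.38, 8.34 and 8.42 in thoracic HPD arrays and 7.61, 7.7, 7.88 and 7.96 in thoracic SCD arrays, against 6.65, 6.42, 7.34 and 6.73 in abdominal HPD arrays and 7.48, 7.19, 7.14 and 6.92 in abdominal SCD arrays. Its thoracic HPD arrays were the highest of the 15. The diet change of Vcan was 0.59 ± 0.174 in thoracic aorta (adjusted p = 0.0934) and -0.39 ± 0.161 in abdominal aorta (adjusted p = 0.181), neither of which passed, nor did their difference (adjusted p = 0.773). Of 3 other cross-linking enzymes, Loxl3, a further lysyl oxidase, was called higher in thoracic aorta on HPD (0.67 ± 0.111) and on SCD (0.53 ± 0.103), and none was called between diets. Beside it, 7.57% of all genes were called higher in thoracic aorta on HPD and 1.76% on SCD.

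Of 13 elastolytic proteases and inhibitors, Ctsl, cathepsin L, read 10.92, 11.13 and 11.03 in thoracic HPD arrays against 10.73, 10.66, 10.65 and 10.79 in thoracic SCD arrays, and 11.03, 11.15, 11.09 and 11.28 in abdominal HPD arrays against 10.74, 10.73, 10.61 and 10.77 in abdominal SCD arrays. All HPD arrays lay above all SCD arrays in both segments, and Ctsl rose by 0.32 ± 0.071 in thoracic aorta (adjusted p = 0.0267) and by 0.42 ± 0.0658 in abdominal aorta (adjusted p = 0.000951). Ctsk, cathepsin K, a strong elastin-degrading protease, fell by 0.50 ± 0.12 in abdominal aorta (adjusted p = 0.0185). Ctsl and Ctsk were the 2 of the 13 called there, where 1.95% of all genes were called higher and 5.06% lower. The call of Ctsk was lost with the smooth muscle covariate (-0.45, adjusted p = 0.0631), without the arrays with hepatocyte markers (-0.509, adjusted p = 0.0677) and without abdominal HPD array 2 or 4 or SCD array 1 or 2 (adjusted p from 0.0503 to 0.0608). With the brown adipocyte covariate the abdominal change was 0.256 for Ctsl (adjusted p = 0.814) and -0.082 for Ctsk (adjusted p = 0.981), and with HPD array 3 alone against SCD arrays 1 and 3 it was 0.412 for Ctsl and -0.33 for Ctsk. Timp4, a metalloproteinase inhibitor gene, rose by 0.77 ± 0.182 in thoracic aorta (adjusted p = 0.0377). Ctsl and Timp4 were the 2 of the 13 called there, beside 1.39% of all genes called higher. The thoracic call of Timp4 was lost without any 1 of the 7 thoracic arrays (adjusted p from 0.0564 without SCD array 4 to 0.132 without HPD array 3), and that of Ctsl was lost without HPD array 2 (adjusted p = 0.132) and without 4 others. Between segments on HPD, Timp1 (1.08 ± 0.232, adjusted p = 0.00758) and Timp4 (0.57 ± 0.182, adjusted p = 0.0481) were higher in thoracic aorta by limma. Mmp14, a membrane-bound metalloproteinase gene, was lower there (-0.27 ± 0.085, adjusted p = 0.0491). The adjusted p of Timp4 and of Mmp14 lay just under the threshold. Of all genes 7.57% were called higher and 6.25% lower in that comparison. None of the 13 was called between segments on SCD.

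Of 8 genes for TGF-beta ligands, their receptors and regulators of elastin, none was called between diets within a segment, and Tgfbr1, a TGF-beta receptor gene, rose by 0.21 ± 0.0576 in the average of the segments (adjusted p = 0.031). In that average 4.53% of all genes were called higher and 6.18% lower. Tgfb2, a TGF-beta ligand gene, was higher in thoracic aorta by 1.16 ± 0.204 on HPD and 0.80 ± 0.188 on SCD, and Myocd, a coactivator of smooth muscle genes, by 0.99 ± 0.233 and 0.81 ± 0.216. Tgfbr1 was also higher (0.30 ± 0.0845, adjusted p = 0.0298) and Tgfb1 lower (-0.52 ± 0.159, adjusted p = 0.0419) in thoracic aorta on HPD by limma. The groups of Tgfb1 overlapped. Abdominal HPD array 3 read 6.89 for Tgfb1, inside the thoracic HPD range of 6.69 to 6.95. Abdominal HPD arrays 1, 2 and 4 read 7.5, 7.38 and 7.49. Of 7 genes for the elastin receptor complex and integrins, 4 were higher in thoracic aorta on HPD, Itga8 (1.34 ± 0.239), Itgb5 (1.19 ± 0.19), Itgb3 (0.35 ± 0.11) and Itgb1 (0.34 ± 0.0783), and Itga8 (0.88 ± 0.221) and Itgb5 (0.75 ± 0.176) were on SCD as well. Over all genes 7.57% were called higher in thoracic aorta on HPD and 1.76% on SCD. The SCD calls of Tgfb2, Myocd, Itga8 and Itgb5 were each lost without 1 of several arrays, among them abdominal SCD array 4 (adjusted p = 0.0824, 0.153, 0.116 and 0.0824). None of the 7 was called between diets.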

How the data were processed

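RMA and Partek are the tools in the submitters' processing notes, without version or role. The deposited log2 values, 1 per probe set and array, were used as they are; the base was taken as 2 from their range, 1.381 to 13.33, since no label gives it. Array medians lay between 5.78 and 5.84, and Pearson's r between arrays of a group was 0.9739 to 0.9885. Detection calls and scan dates were not used here, so signal over background is unknown and the number of arrays limits precision. Of 41345 probe sets, 23521 name 1 gene symbol, 1814 several, and 16010 are not listed in the platform's gene table. The brightest by mean over 15 arrays was kept for the 1082 genes with several, which left 22180 genes. No dim genes were removed.

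Titles gave the segment and diet of each array. A model with 4 group means was fitted in limma 3.58.1 (R 4.3.3, lmFit, eBayes with trend, 11 residual degrees of freedom), two-sided. The code was also run on simulated data with independent noise for each gene. Those data lack the tissue differences that these arrays share, so they do not bear on the calls made here. The labels do not pair arrays across groups, so no block was used in the main fit. Same-numbered thoracic and abdominal arrays of a diet could share a mouse. Their deviations from group means had r from 0.03 to 0.122. For same-numbered arrays of different diets in a segment, r was -0.25 to 0.404. Whether arrays shared mice stays unknown. Members, lists and tests were chosen with earlier results of these data known. All members could be named, and of other lists each called gene and up to 4 with the smallest p. For Eln, the 5 genes most correlated with it could be named.

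Alternatives changed the variance prior, dim-gene filter, groups in the fit, normalization, centring, weights, block, probe sets, threshold and covariates, or left out each array. Fits without the 5 arrays with T and NK cell markers and without the 3 with hepatocyte markers were added after seeing the data.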

Additional observations from a re-analysis of the deposited data

How the results depend on the processing

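Of 1660 values of the 10 elastic fibre genes under alternative fits, 1539 kept their sign and side of the threshold, or changed sign without passing in either fit (59 of them), 45 passed only in the alternative, 69 lost their call and 7 turned round. Of 1057 values of called genes of the other lists, 774 kept their call, 275 lost it and 8 turned round. The 1057 hold only results called in the main fit, while most of the 1660 belong to results not called there. Only called results could lose a call, so the shares of the 1660 and the 1057 are not comparable. In abdominal aorta the 2 calls between diets became 1 with only the groups compared and 6 with array weights. They became 0 with the brown adipocyte mean as a covariate and 5 without the arrays with hepatocyte markers. Over all 22180 genes these fits called 1026, 2024, 0 and 1457 in either direction, against 432 higher and 1122 lower in the main fit. Leaving out 1 array at a time gave 2 to 7 calls between diets in abdominal aorta, and 1 to 5 for the 3 calls of the average. The average gave 5 without abdominal HPD array 3 and 1 without thoracic HPD array 1, where 2731 and 2133 of all genes were called. For the 4 calls between segments on SCD it gave 1 to 6. There were 6 without abdominal HPD array 3 and 1 without abdominal SCD array 4, beside 1273 and 500 of all genes. There were 2 without thoracic SCD array 1, 3 or 4, beside 695, 713 and 622 of all genes. For the average, the brown adipocyte covariate left 0 calls, and 0 of all genes were called there, against 1005 higher and 1371 lower in the main fit. Between segments on HPD, 8 calls became 0 with either covariate. Of all genes 9 were called with the smooth muscle and 19 with the brown adipocyte covariate, against 1680 higher and 1387 lower in the main fit. On SCD, 4 calls became 0 with the smooth muscle and 1 with the brown adipocyte covariate. Of all genes 68 and 569 were called there, against 391 higher and 670 lower in the main fit. In thoracic aorta the smooth muscle covariate gave 1 call, Loxl1, beside 810 of all genes, against 309 higher and 239 lower in the main fit. With the number of the replicate as a block, the counts were 2 in abdominal and 0 in thoracic aorta, 2 in the average, 0 for the difference, 8 between segments on HPD and 5 on SCD. Over all genes that fit called 1692, 646, 2609, 0, 2670 and 1126, in the same order.

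With the brown adipocyte covariate the estimate turned to 0.443 for Mfap4, 0.053 for Efemp1 and 0.009 for Adamtsl5 in abdominal aorta, to 0.556 for Mfap4 and 0.276 for Ltbp4 in the average, and to 0.023 for Tgfb1 between segments on HPD. That covariate does not overlap between diets in either segment, and the SE of Mfap4 in abdominal aorta was 0.485 with it, against 0.176. With the smooth muscle covariate the segment difference on HPD turned to -0.195 for Eln, -0.018 for Fbln5, -0.128 for Lox, -0.023 for Ltbp4, -0.16 for Fbln7, -0.044 for Timp4, 0.351 for Tgfb1, -0.206 for Myocd and -0.119 for Itga8. The fit without the 5 arrays with T and NK cell markers keeps 1 abdominal HPD array, assumed to vary like the other groups. Its lost and kept calls therefore say little about stability, and its counts are not given. The causes of these changes were not tested. Lox on SCD was called in 11 of 28 alternatives. No detection calls were used, so signal over background does not bound any value.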
